A study of Mus musculus with 3 samples.

Results

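Mouse macrophages were compared after 4 h with purified *Borrelia burgdorferi* lipoprotein (LP4) and after PBS (UI), which was also collected at 4 h. These are 2 of the 3 single-cell RNA libraries of the series, and the other, LP1, was collected 1 h after lipoprotein. The comparison was defined by the library labels, not by any measured value. Barcodes with more than 500 unique molecular identifiers (UMIs, tags that count captured transcripts), more than 500 genes and less than 5% of UMIs in mitochondrial genome genes were kept, which left 6071 UI cells and 4670 LP4 cells of the 15806 kept in the 3 libraries.

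All cells were bone marrow-derived macrophages (BMDMs) of female C3H/HeN mice aged 6-8 weeks. Marrow was grown for 8 days in medium conditioned by L929 cells, a fibroblast line that secretes the macrophage growth factor CSF-1. The paper's culture methods describe pooled marrow, and its single-cell methods describe BMDMs of 3 mice treated independently. LP4 cells received *Bb*LP, lipoproteins purified from cultured spirochetes with a detergent, at 1 µg/mL, so the ligand is a mixture without live bacteria. UI cells received PBS. Cells of 3 wells were pooled before capture into 1 library per condition. The spread between cultures or mice was therefore not measured, no test was possible, and every difference given here lies between 2 libraries. Intervals are exact 95% intervals and cover counting error only.

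Lipoproteins of *B. burgdorferi* carry acyl chains that are bound by Toll-like receptor 2 (TLR2) paired with TLR1 or TLR6, with help from CD14. The adaptor MyD88 then recruits IRAK kinases, which activate NF-κB and MAP kinases and so the genes of cytokines, chemokines and their own inhibitors. Interferon-β, where it is made, is bound by a receptor whose signalling leads to binding of the interferon-stimulated response element (ISRE) in the promoters of antiviral genes. Macrophages are resident and recruited phagocytes in infected skin, heart and joints.

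The kept cells hold 35688939 UMIs in UI and 61402275 in LP4, with medians of 5133 and 11784 UMIs per cell. Mean UMIs per cell were 2.24 times higher in LP4, and RNA content, capture and sequencing depth cannot be told apart as its source. Counts were therefore expressed per 1000000 UMIs of the library (CPM), and the change in UMIs per cell is given beside the largest falls. For every gene, the log2 ratio in UMIs per cell is the log2 CPM ratio plus 1.16. A log2 CPM ratio between -1.16 and 0 therefore goes with more UMIs per cell. Falls given in CPM alone are smaller per cell or absent. The mitochondrial limit removed 18 barcodes in UI and 273 in LP4, and 7 barcode sequences occurred in both libraries. All 10 macrophage markers reached 10 CPM and summed to 1.26% of UMIs in UI and 1.29% in LP4. The sum joins 5 markers that rose and 5 that fell, with log2 ratios from -0.90 to 2.26, so single markers were not steady. Of 10 neutrophil markers, 4 reached 10 CPM, with summed shares of 0.0549% and 0.0708% of UMIs, and 32 UI and 29 LP4 cells had at least 1% of their UMIs in that list. No marker of dendritic cells, T and NK cells, B cells, erythroid cells, mast cells or stroma reached 10 CPM in either library. The stromal sum was 0.000429% of UMIs in UI and 0.00203% in LP4. As cells of other types, those with at least 1% of UMIs in neutrophil markers, or 0.5% in stromal or dendritic cell markers, were left out as an alternative. This moved no count of 2-fold differences by more than 4 genes. The dendritic cell limit held 0 cells in both libraries. Cells with T and NK, B, erythroid or mast cell markers were not left out, so their part was not measured.

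Of the 32285 genes in the matrices, 8019 reached 10 CPM in UI or LP4, and of these 850 (10.6%) were at least 2-fold higher in LP4 and 795 (9.91%) at least 2-fold lower. At least 4-fold differences were found for 248 genes higher (3.09%) and 140 lower (1.75%), and at least 16-fold ones for 46 higher (0.574%) and 19 lower (0.237%). The median log2 ratio was -0.07, with quartiles of -0.54 and 0.45. The 850 higher genes took 4.87% of all UMIs in UI and 16.2% in LP4, and the 795 lower genes took 10.7% in UI and 3.87% in LP4. Scaling by trimmed mean of M values (TMM) moved the median up by 0.22 and gave 1157 genes higher and 523 lower, so that 68.9% of 2-fold differences were higher instead of 51.7%. A log2 ratio between -0.22 and 0 would therefore become positive under that scaling. Among the 167 genes that reached 1000 CPM in either library, 26 were at least 2-fold higher and 11 at least 2-fold lower. Of the 8019 genes, 493 reached 10 CPM in LP4 alone, of which 283 were at least 2-fold higher, and 713 in UI alone, of which 333 were at least 2-fold lower. A gene that passes through 1 library alone is one that the limit itself selects for a difference, so the counts and medians of gene lists given here describe the members that passed and support nothing by themselves. The genes just inside the limit of 10 CPM were *Fhod1*, *Engase* and *Ptchd1*, each with 357 UMIs in UI, and those just outside were *Nmnat1*, *Zfp219* and *Trmt10c*, each with 356.

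**Figure D1:**
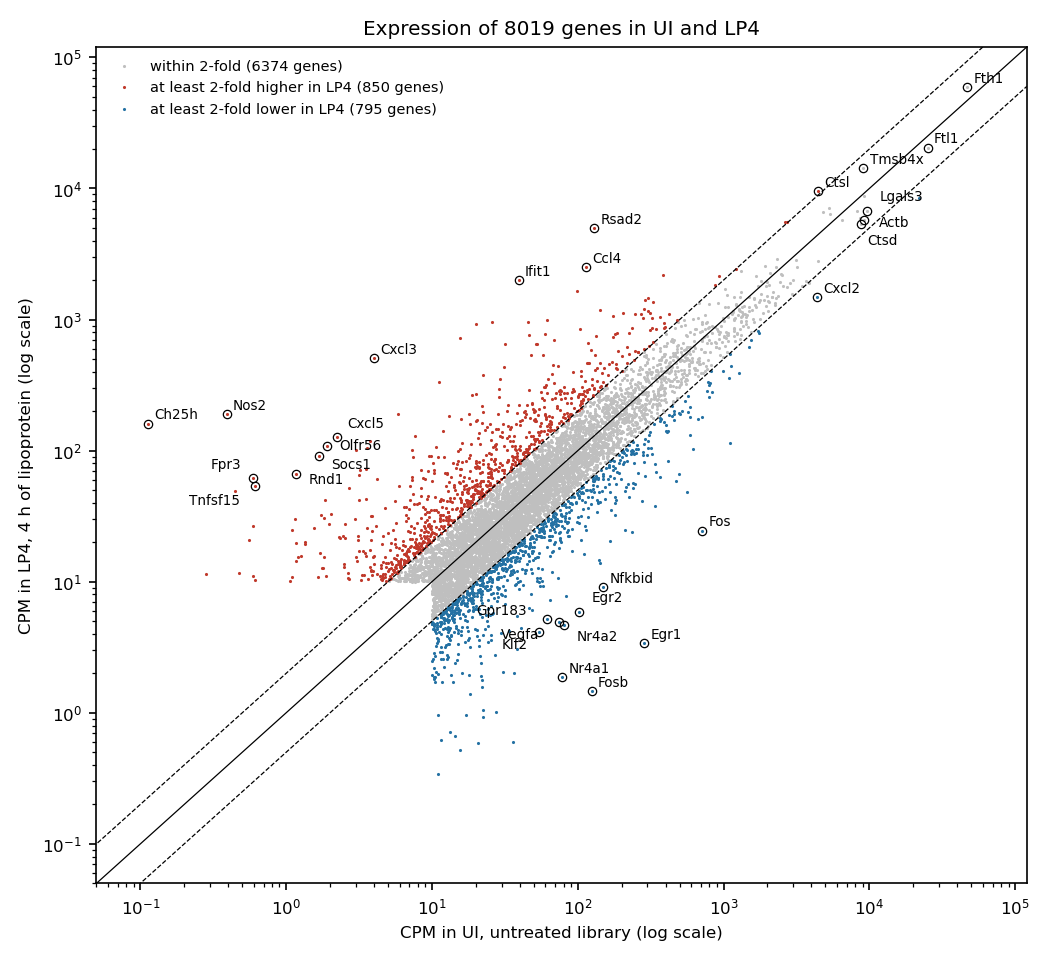
CPM of each of the 8019 genes in UI (x axis) and LP4 (y axis), both on log scales, with 1 point per gene; red points are the 850 genes at least 2-fold higher in LP4, blue points the 795 at least 2-fold lower and grey points the rest, dashed lines mark 2-fold, and circles mark the named genes. *Ch25h* and *Nos2* lie farthest above the dashed lines and *Fosb* and *Egr1* farthest below.

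Expression at the receptor level differed gene by gene. *Tlr2* rose from 107 to 309 CPM, while both of its partners stayed below 10 CPM in both libraries. *Tlr1* had 8.71 CPM in UI and 5.85 in LP4, and *Tlr6* had 7.76 and 6.81, with an interval of its log2 ratio from -0.41 to 0.04. *Cd14*, which hands lipid ligands to TLR2 and TLR4, rose from 291 to 1399 CPM (log2 ratio 2.26, 2.24 to 2.29). *Ly96*, the MD-2 subunit that lets TLR4 bind lipopolysaccharide, rose from 9.89 to 26.4 CPM, and *Tlr3*, a receptor for double-stranded RNA, from 7.76 to 19.1 CPM (log2 ratio 1.30, 1.11 to 1.49), an interval that shows the counting precision near 10 CPM. *Tlr4* itself moved little, with 31.3 and 33.6 CPM, as did *Cd180*, a TLR4-related receptor, with 201 and 214. Among the listed receptors with at least 10 CPM, *Tlr13*, an endosomal receptor for bacterial ribosomal RNA, had the largest fall, from 129.7 to 48.5 CPM. It was also lower per cell. Of the 13 receptors and co-receptors listed, 10 reached 10 CPM. Of these, 4 were at least 2-fold higher (against 10.6% of all genes) and 1 lower (against 9.91%), with a median log2 ratio of 0.44. *Ly96* and *Tlr3* passed through LP4 alone, and of the 8 with at least 10 CPM in UI, 2 were at least 2-fold higher and 1 lower. Over all 7526 genes with at least 10 CPM in UI, 567 were at least 2-fold higher and 795 lower.

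Transcripts of adaptors and kinases moved in both directions. *Myd88* rose from 15.4 to 58.0 CPM and *Tirap*, the adaptor that bridges TLR2 to MyD88, from 11.6 to 26.5. *Map3k8*, the kinase that activates ERK below TLRs, rose from 27.0 to 86.4 CPM, and *Tab2*, a ubiquitin-binding partner of TAK1, from 116 to 283. In contrast, *Tab1*, another TAK1 partner, fell from 10.3 to 4.35 CPM. *Tab1* reached 10 CPM in UI alone, and its log2 ratio in UMIs per cell was -0.08. *Irak2* was lower within 2-fold, at 295 and 169 CPM, and *Irak4* at 26.4 and 16.6. The IκB kinase subunits *Ikbkg* and *Ikbkb* were nearest to no difference, with log2 ratios of 0.12 and -0.14. Of 20 genes with at least 10 CPM among 21 listed, 4 were at least 2-fold higher and 1 lower. The other 15 were within 2-fold, a share near the 79.5% of all genes.

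Of 19 NF-κB subunits and feedback inhibitors, 1 was at least 2-fold higher and 1 lower, with a median of 0.29, where 79.5% of all genes were within 2-fold. *Bcl3*, a nuclear IκB protein, rose from 46.7 to 139 CPM. *Nfkbid*, another nuclear IκB protein, fell from 149 to 9.17 CPM (log2 ratio -4.02, -4.15 to -3.89), and its log2 ratio in UMIs per cell was -2.86. *Rel*, the c-Rel subunit, stood at 351 CPM in UI and 208 in LP4. *Zc3h12a*, an RNase that degrades cytokine transcripts, had 102 and 164 CPM. The inhibitors *Tnip3* and *Traf1* were higher within 2-fold, and *Birc3* and *Tank* had log2 ratios of 0.19 and 0.16.

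The cytokine genes split in direction. Of 22 listed, 15 reached 10 CPM. Of these, 9 were at least 2-fold higher in LP4 (against 10.6% of all genes) and 3 lower (against 9.91%), with a median log2 ratio of 1.24. Of the 9, 4 passed through LP4 alone. *Tnfsf15*, the TL1A ligand that costimulates T cells, rose from 22 UMIs in UI to 3278 in LP4. *Il27*, the p28 subunit of interleukin 27, rose from 3.59 to 105 CPM, and *Il6* from 1.09 to 24.7 CPM. *Il15*, which sustains NK cells and memory T cells, rose from 59.9 to 780.0 CPM. The 3 that fell had at least 99.3 CPM without lipoprotein. *Tnf* stood at 839.8 CPM in UI and 280.4 in LP4, a log2 ratio of -1.58 (-1.61 to -1.56), and its log2 ratio in UMIs per cell was -0.42. *Tnfsf9*, the 4-1BB ligand, had 114 and 24.7 CPM. *Csf1*, the macrophage growth factor, had 99.3 and 47.4 CPM but was not lower in UMIs per cell, with a log2 ratio of 0.10. *Il10* and *Osm* were the cytokines nearest to no difference, with log2 ratios of 0.49 and 0.32.

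Chemokine genes included some of the widest rises, and they differed in direction. Of 19 listed, 15 reached 10 CPM. Of these, 9 were at least 2-fold higher (against 10.6% of all genes) and 1 lower (against 9.91%), with a median of 1.88. Of the 9, 3 passed through LP4 alone. *Cxcl5*, a ligand of the neutrophil receptor CXCR2 (chromosome 5, 90759360 to 90761624), rose from 80 to 7860 UMIs, or 2.24 to 128 CPM. Its neighbour *Cxcl3* (90786103 to 90789600), also a CXCR2 ligand, had 3.98 CPM in UI, 8.44 in LP1 and 509 in LP4. *Cxcl2*, another gene of that cluster (90903871 to 90905938), moved the other way and fell from 4378 to 1489 CPM (log2 ratio -1.56), and its log2 ratio in UMIs per cell was -0.39. *Cxcl1*, a further CXCR2 ligand, had 623 and 682 CPM. The 4 ligands of this receptor thus differed in direction as well as in size. The paper's RT-PCR of BMDMs, with *Actb* as control, reports *Cxcl2* higher than with PBS at every time tested, 4 h included. Its ELISA detected no CXCL2 in supernatants of PBS-treated cells. Its text also states that *Cxcl2* was raised in its single-cell data at 1 and 4 h. In contrast, its single-cell list of genes higher in untreated than in LP4 cells holds *Cxcl2*. These differences, between assays and within the paper's single-cell results, were not tested. *Cxcl10*, which attracts CXCR3-bearing T cells, rose from 20.1 to 922 CPM, and *Ccl4*, a chemokine that attracts monocytes and T cells, from 114 to 2524 CPM. *Ccl12*, a CCR2 ligand, rose from 10 to 701 UMIs and reached 11.4 CPM, whereas its relative *Ccl7* stayed at 162 and 148 CPM.

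In LP1, 58 of the 8019 genes (0.723%) were at least 2-fold higher than in UI and 41 (0.511%) at least 2-fold lower. The 8019 were chosen by CPM in UI or LP4, so genes that reached 10 CPM in LP1 alone are not counted. LP1 and LP4 share the UI library, so their values are set side by side without a comparison.

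**Figure D2:**
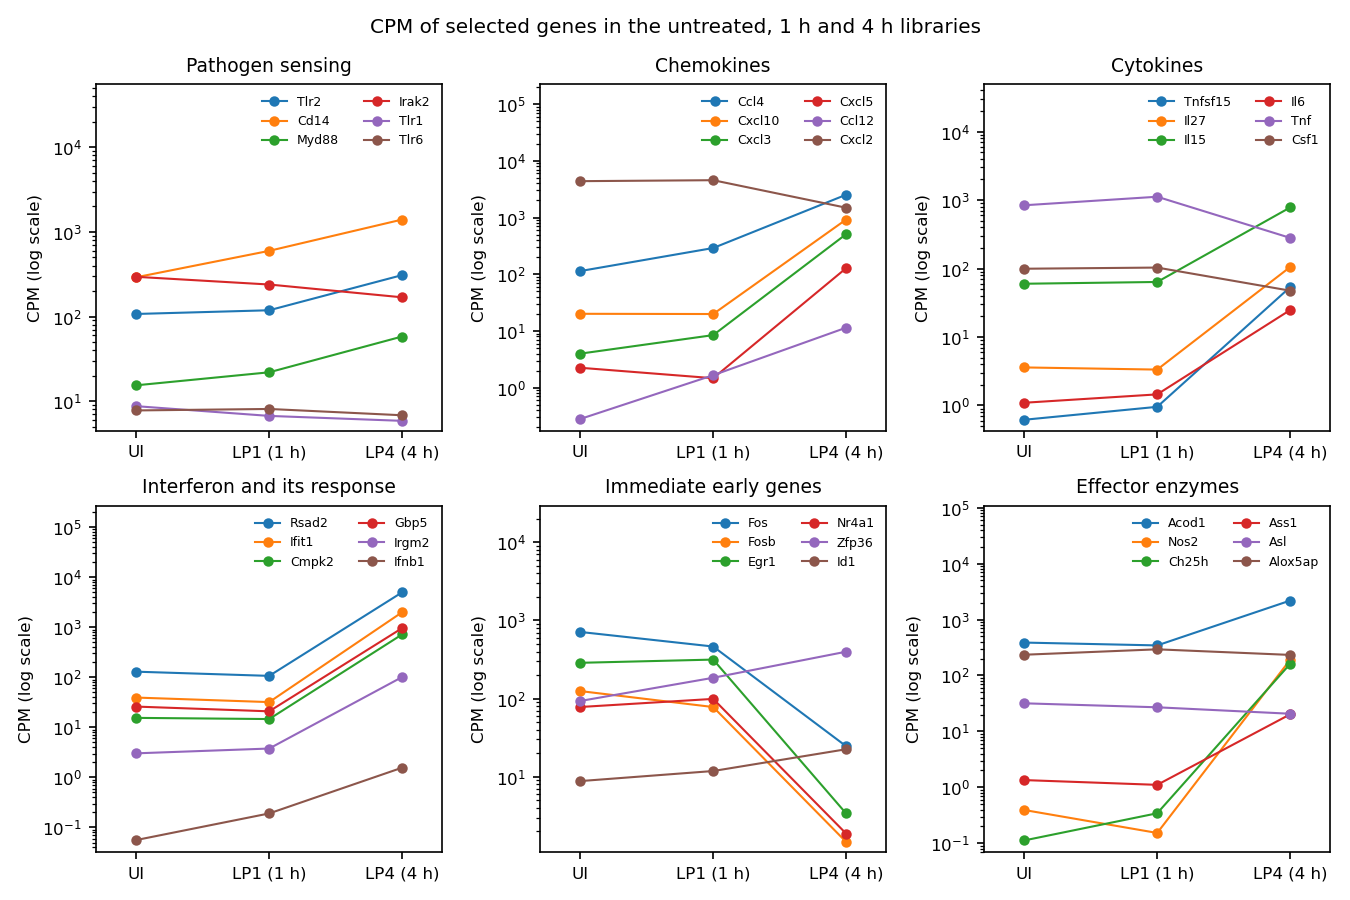
CPM (log scale) of 36 genes in UI, LP1 (1 h) and LP4 (4 h), with 1 point per library and gene, lines joining the points of a gene, and a panel for each of 6 gene groups. LP1 is shown for orientation; *Ccl4* and *Zfp36* are already higher in LP1 than in UI, whereas *Rsad2*, *Ifit1* and *Cmpk2* are higher in LP4 alone.

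Interferon-response genes were higher in LP4 almost without exception. Of 41 genes of the type I interferon response listed, 39 reached 10 CPM, and of these 33 were at least 2-fold higher (against 10.6% of all genes) and none at least 2-fold lower, with a median log2 ratio of 1.95. Of the 35 with at least 10 CPM in UI, 29 were at least 2-fold higher (against 567 of all 7526 such genes). Together they rose from 0.304% to 1.90% of all UMIs. *Rsad2*, the antiviral enzyme viperin, gained most, from 129.5 to 4995 CPM, and *Cmpk2*, its neighbour in the genome and a nucleotide kinase of mitochondria, rose from 15.5 to 719.7. *Ifit2*, which binds viral RNA, rose from 45.5 to 951 CPM. *Oas3*, a sensor of double-stranded RNA, and *Ifitm3*, which blocks viral entry, were the exceptions with the smallest differences, at 116 and 121 CPM and 832 and 788 CPM. *Mx1* and *Mx2* are not in the matrices under these symbols.

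*Ifnb1*, the interferon-β gene itself, had 2 UMIs in UI, 10 in LP1 and 96 in LP4, and so stayed below 10 CPM in all. Its 96 UMIs in LP4 lay in 51 of 4670 cells, with at most 8 in a cell. The log2 ratio was 4.80, and with 2 UMIs in UI its interval ran from 2.91 to 7.87. By contrast, *Rsad2* was seen in 97.2% of LP4 cells at their own depth.

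Guanylate-binding proteins (GBPs) and immunity-related GTPases, which assemble on vacuoles that hold pathogens, had a median of 3.47 over the 14 members with at least 10 CPM. Of these, 7 passed through LP4 alone, and the 7 with at least 10 CPM in UI were each at least 2-fold higher. Of all 7526 genes with at least 10 CPM in UI, 567 were at least 2-fold higher. The 2 members below 10 CPM in both libraries, *Gbp8* and *Tgtp1*, had 31 and 1 UMIs in UI and 162 and 55 in LP4. The summed share of all 16 members listed rose from 0.0160% to 0.229% of UMIs. *Gbp5* rose from 26.0 to 961 CPM, *Irgm2*, a regulator of the other GTPases, from 3.03 to 101, and *Gbp4* from 1.54 to 25.9. *Gbp9* was the least changed of the 14, at 3.81 and 12.3 CPM. *Tgtp2* rose from 21 to 682 UMIs, and its count is uncertain. Its locus lies inside the annotated span of *Olfr56* (chromosome 11, 48978889 to 49135387), an olfactory receptor gene that rose from 68 to 6641 UMIs and that also spans *Ifi47* and *Tgtp1*. *Olfr56* and *Ifi47* are annotated on the plus strand, and *Tgtp1* and *Tgtp2* on the minus strand. Reads of *Ifi47* and *Olfr56*, which share a strand, cannot be divided with certainty. The rise of the olfactory receptor gene is therefore not read as its own. How reads were divided between *Tgtp2* and the other genes of this locus was not checked, so its count is kept as uncertain. *Socs1*, an inhibitor of cytokine and interferon receptor signalling, rose from 60 to 5569 UMIs.

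Promoters of some of the named genes are shown next. They were chosen because they hold letters that factors of the interferon, NF-κB and serum-response pathways bind. How common these letters are cannot be read from them. The promoters of *Ch25h*, *Nos2*, *Fosb* and *Egr1*, which had the widest ratios, are not among them. Each is the 250 bases before the annotated start, read 5′ to 3′ in the direction of transcription, from RefSeq on GRCm38.p6, in lower case with the motif matches in capitals. The motifs searched, on both strands, were the ISRE core (TTTC, any 2 bases, TTTC), the κB site (GGG, any 2 bases, TTTCC), the AP-1 site TGANTCA, the cyclic AMP response element TGACGTCA and the CArG box, which serum response factor binds. Matches that share bases in the windows printed number 0. *Ifit1*, *Rsad2*, *Irgm2*, *Gbp5* and *Cxcl10* are shown for the ISRE, *Cxcl3* and *Il6* for the κB site, and *Egr2* and *Zfp36*, which moved in opposite directions, for the CArG box.
Ifit1, chr19:34640639-34640888, plus strand: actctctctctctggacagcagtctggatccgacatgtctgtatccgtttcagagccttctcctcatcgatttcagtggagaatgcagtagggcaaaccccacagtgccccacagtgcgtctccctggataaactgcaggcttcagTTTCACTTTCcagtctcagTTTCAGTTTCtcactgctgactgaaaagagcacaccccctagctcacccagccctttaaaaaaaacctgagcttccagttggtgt
Rsad2, chr12:26456453-26456702, minus strand: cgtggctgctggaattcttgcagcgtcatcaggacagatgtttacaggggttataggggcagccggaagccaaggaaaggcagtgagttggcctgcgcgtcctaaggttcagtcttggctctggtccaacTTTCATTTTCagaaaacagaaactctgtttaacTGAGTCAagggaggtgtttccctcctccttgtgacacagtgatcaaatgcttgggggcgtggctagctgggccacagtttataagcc
Irgm2, chr11:58214727-58214976, plus strand: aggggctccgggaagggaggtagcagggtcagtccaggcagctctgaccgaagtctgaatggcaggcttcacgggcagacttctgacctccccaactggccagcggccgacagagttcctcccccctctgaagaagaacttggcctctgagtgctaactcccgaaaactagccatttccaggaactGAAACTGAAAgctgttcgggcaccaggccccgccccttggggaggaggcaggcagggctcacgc
Gbp5, chr3:142496684-142496933, plus strand: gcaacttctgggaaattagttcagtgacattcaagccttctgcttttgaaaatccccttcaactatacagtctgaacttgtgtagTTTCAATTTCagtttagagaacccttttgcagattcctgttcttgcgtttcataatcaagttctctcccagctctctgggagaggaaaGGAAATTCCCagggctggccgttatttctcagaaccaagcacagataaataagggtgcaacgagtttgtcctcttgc
Cxcl10, chr5:92348890-92349139, minus strand: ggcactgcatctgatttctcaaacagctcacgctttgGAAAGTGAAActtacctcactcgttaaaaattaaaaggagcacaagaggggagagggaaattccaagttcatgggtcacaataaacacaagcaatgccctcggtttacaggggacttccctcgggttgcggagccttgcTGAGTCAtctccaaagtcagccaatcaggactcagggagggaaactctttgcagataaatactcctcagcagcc
Cxcl3, chr5:90785851-90786100, plus strand: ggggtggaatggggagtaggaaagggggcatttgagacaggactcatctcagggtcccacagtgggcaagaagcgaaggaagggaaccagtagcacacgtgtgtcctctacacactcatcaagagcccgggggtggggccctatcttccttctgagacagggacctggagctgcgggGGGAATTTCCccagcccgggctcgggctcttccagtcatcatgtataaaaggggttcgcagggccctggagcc
Il6, chr5:30012864-30013113, plus strand: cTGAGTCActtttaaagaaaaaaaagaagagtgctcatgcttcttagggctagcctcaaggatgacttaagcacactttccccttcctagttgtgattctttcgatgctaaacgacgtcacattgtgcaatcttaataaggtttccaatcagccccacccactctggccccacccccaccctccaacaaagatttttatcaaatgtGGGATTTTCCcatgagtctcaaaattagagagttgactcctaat
Egr2, chr10:67537619-67537868, plus strand: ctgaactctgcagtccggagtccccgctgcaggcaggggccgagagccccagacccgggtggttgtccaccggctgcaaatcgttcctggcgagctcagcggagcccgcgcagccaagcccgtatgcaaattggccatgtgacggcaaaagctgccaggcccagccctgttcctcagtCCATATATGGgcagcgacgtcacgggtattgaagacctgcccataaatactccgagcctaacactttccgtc
Zfp36, chr7:28379229-28379478, minus strand: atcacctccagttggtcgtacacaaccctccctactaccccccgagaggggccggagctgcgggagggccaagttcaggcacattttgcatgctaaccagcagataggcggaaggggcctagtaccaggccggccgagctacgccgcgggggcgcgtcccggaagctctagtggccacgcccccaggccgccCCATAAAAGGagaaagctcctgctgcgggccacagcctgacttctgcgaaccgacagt

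*Ifit1* has an ISRE core at 104 to 95 and another at 85 to 76 bases before its start. *Rsad2* has an ISRE core at 120 to 111 bases and an AP-1 site at 87 to 81, and *Cxcl10* an ISRE core at 213 to 204 and an AP-1 site at 74 to 68. *Irgm2* has its match at 64 to 55 bases, and the ISRE cores of *Irgm2* and *Cxcl10* are on the opposite strand. *Gbp5* has an ISRE core at 165 to 156 bases and a κB site at 77 to 68, the latter on the opposite strand. The κB site of *Cxcl3* lies at 73 to 64 bases and that of *Il6* at 44 to 35, and *Il6* has an AP-1 site at the far end of its window. The window of *Egr2* is 1 of several annotated starts, another of which has no match, with a CArG box at 72 to 63 bases, and *Zfp36* has its own at 58 to 49. Letters of a motif describe the window only and are not evidence that a factor was bound.

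Over all 27025 genes with a promoter in the RefSeq table, 3.46% had the ISRE core in this window before any of their annotated starts. Among the 6455 of the 8019 measured genes that matched by symbol, it was in 3.58%. It was in 39 of 190 genes at least 4-fold higher (20.5%), in 72 of 670 at least 2-fold higher (10.7%), in 142 of 5164 within 2-fold (2.75%) and in 2 of 105 at least 4-fold lower (1.90%). Thus the share with the motif was greatest where the rise was greatest. Of the type I interferon response list, 15 of 32 matched genes held it (46.9%), and of the GBP list, 9 of 10. *Rsad2*, *Ifit1* and *Oas3* are among the 15, and *Oas3* held the letters without a 2-fold difference. The κB site was in 1.65% of all promoters and 1.86% of those of measured genes, in 7 of 190 genes at least 4-fold higher (3.68%) and 1 of 105 at least 4-fold lower. It was in 4 of 8 matched chemokine genes, among them *Cxcl3*, which rose, *Cxcl1*, which was higher within 2-fold, and *Cxcl2*, which fell. The AP-1 site was in 7.82% of all promoters and 5.76% of those of measured genes, in 28 of 190 genes at least 4-fold higher (14.7%) and 7 of 105 at least 4-fold lower (6.67%). The CArG box was in 1.62% of all promoters and 1.33% of those of measured genes, in 1 of 190 genes at least 4-fold higher and in 2 of 105 at least 4-fold lower. Of the immediate early list, 3 of 25 matched genes held it, *Egr2*, *Dusp5* and *Zfp36*. The cyclic AMP response element was in 1.77% of all promoters and 3.35% of those of measured genes. It was in 1 of 190 genes at least 4-fold higher (0.526%) and 13 of 670 at least 2-fold higher (1.94%). Among lower genes, it was in 30 of 621 at least 2-fold lower (4.83%) and 2 of 105 at least 4-fold lower (1.90%).

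**Figure D3:**
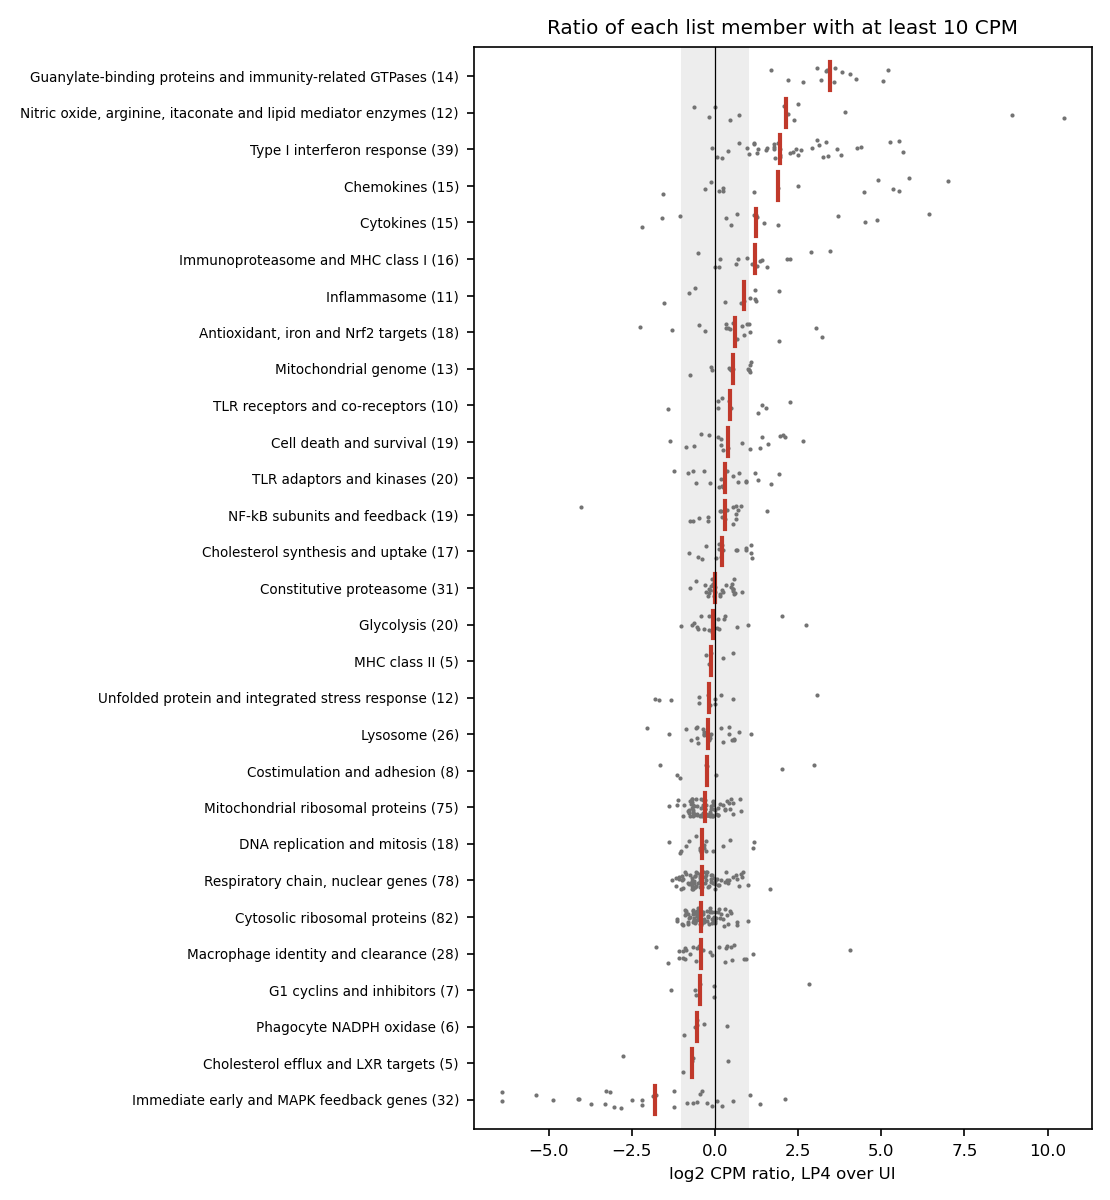
Log2 CPM ratio of LP4 over UI (x axis) for every member with at least 10 CPM of each gene list, with 1 point per gene, red bars for list medians and a grey band for ratios within 2-fold. The interferon list (median 1.95) and the GBP list (3.47) lie to the right, the immediate early list (-1.82) to the left, and the constitutive proteasome list (0.01) is centred on 0.

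Effector enzymes showed the widest rises of all. *Ch25h*, which makes the antiviral oxysterol 25-hydroxycholesterol, rose from 4 UMIs in UI to 9881 in LP4, and *Nos2*, inducible nitric oxide synthase, from 14 to 11689. Their log2 ratios were 10.49 (9.13 to 12.36) and 8.92 (8.18 to 9.79), and the width of these intervals reflects the few UMIs in UI. *Ass1*, which regenerates the arginine that NOS2 uses, rose from 1.34 to 20.2 CPM, whereas *Asl*, the next enzyme of that cycle, stood at 31.7 and 20.7 CPM. *Acod1*, which makes itaconate, rose from 387 to 2182 CPM. Of 12 genes of nitric oxide, arginine, itaconate and lipid mediator metabolism, 7 were at least 2-fold higher (against 10.6% of all genes). None was 2-fold lower (against 9.91%), and the median was 2.14. Of the 7, 3 passed through LP4 alone. *Alox5ap*, needed for leukotriene synthesis, was at 235 CPM in UI and 233 in LP4. Other genes among the 10 with the largest rises, taken over genes with at least 50 CPM, were *Fpr3*, a formyl peptide receptor family member, and *Rnd1*, a small GTPase that acts on the actin cytoskeleton, which rose from 42 to 4089 UMIs.

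In the opposite direction, transcripts of immediate early transcription factors showed the largest falls. *Fosb* fell from 125 to 1.47 CPM and *Nr4a1*, an orphan nuclear receptor, from 78.0 to 1.87 CPM. *Fos* fell from 712 to 24.6 CPM, and *Egr1* from 287 to 3.39 CPM. Since LP4 cells held more UMIs, the same falls were smaller but still large per cell, with log2 ratios of -5.25 for *Fosb*, -5.24 for *Egr1*, -4.22 for *Nr4a1* and -3.69 for *Fos*. *Nr4a2*, *Vegfa*, *Klf2* and *Gpr183*, an oxysterol receptor, completed the 10 largest falls, taken over genes with at least 50 CPM, beside *Egr2* and *Nfkbid*. In UMIs per cell, log2 ratios were -2.96 for *Egr2*, -2.94 for *Nr4a2*, -2.77 for *Vegfa*, -2.55 for *Klf2* and -2.41 for *Gpr183*. *Vegfa*, the angiogenic growth factor, stood at 74.8 CPM in UI and 4.90 in LP4. *Gpr183* stood at 61.9 and 5.20 CPM, while *Ch25h*, whose product is the precursor of its ligand, rose.

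Of 34 immediate early and MAP kinase feedback genes listed, 32 reached 10 CPM. Of these, 19 were at least 2-fold lower (against 9.91% of all genes) and 3 higher (against 10.6%), with a median of -1.82. Of the 19, 7 passed through UI alone, and of the 3, 2 through LP4 alone. All 19 also had fewer UMIs per cell, as did 587 of the 795 genes at least 2-fold lower in CPM (7.32% of the 8019). The per-cell ratio follows from the CPM ratio by the same shift for every gene, so it adds no separate measurement. Of all genes, 122 (1.52%) were at least 2-fold lower per cell. The list is not uniform. *Zfp36*, tristetraprolin, which degrades AU-rich cytokine transcripts, rose from 93.2 CPM in UI to 398 in LP4. *Id1*, an inhibitor of helix-loop-helix factors, and *Dusp6*, an ERK phosphatase, rose from 8.80 to 22.5 and from 5.04 to 10.6 CPM. *Jund* and *Id2* had log2 ratios of 0.07 and -0.09.

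Genes of the inflammasome, which matures interleukin 1β, were split between sensors. *Nlrp3* fell from 573 to 197 CPM and was also lower per cell, and *Pycard*, the adaptor ASC, stood at 113 and 65.7 CPM. The paper's RT-PCR of BMDMs, with *Actb* as control, reports *Nlrp3* higher than with PBS at every time tested, 4 h included. Its text also states that *Nlrp3* was raised in its single-cell data at 1 and 4 h. Its single-cell list of genes higher in untreated than in LP4 cells nevertheless holds *Nlrp3*. These differences, between assays and within the paper's single-cell results, were not tested. *Naip2*, a sensor of bacterial secretion systems, rose from 33.8 to 129 CPM, and *Aim2*, a sensor of cytosolic DNA, from 78.7 to 182. *Casp4*, the gene of mouse caspase-11, rose from 112 to 262 CPM, while its substrate *Gsdmd* had a log2 ratio of 0.30. Of 11 genes, 5 were at least 2-fold higher (against 10.6% of all genes) and 1 lower (against 9.91%).

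Antigen presentation genes differed by class. Of 16 genes of the immunoproteasome and MHC class I with at least 10 CPM, 9 were at least 2-fold higher (against 10.6% of all genes). None was 2-fold lower (against 9.91%), and the median was 1.20. *Nlrc5*, the transactivator of class I genes, rose from 15.9 to 174 CPM, *Tap2*, a subunit of the peptide transporter, from 9.44 to 44.9, and *B2m*, the class I light chain, from 247 to 1102. The immunoproteasome subunits *Psmb8* and *Psmb10* stayed at log2 ratios of 0.12 and 0.01. None of 5 class II genes was 2-fold different. Their median of -0.10 became 0.12 under TMM and 0.53 in cells of 5000 to 15000 UMIs. *H2-Aa* stood at 13.6 and 19.8 CPM and *Cd74*, the invariant chain, at 118 and 110.2. None of 31 constitutive proteasome genes differed 2-fold, with a median of 0.01. Of all genes, 79.5% were within 2-fold. Costimulation also divided. *Cd40* rose from 50.3 to 205 CPM and *Cd69*, an early activation marker, from 10.2 to 81.0, whereas *Cd80* fell from 12.9 to 4.15 CPM. *Cd86* was lower as a share of UMIs, at 165 and 75.4 CPM, but not per cell, with a log2 ratio of 0.03.

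Metabolic gene lists differed among themselves. Of 20 glycolysis genes, 2 were at least 2-fold higher and 1 lower, with a median of -0.07 that became 0.16 under TMM. These counts were near or below the shares of all genes, 10.6% higher and 9.91% lower. *Pfkfb3*, which makes the activator of phosphofructokinase, rose from 33.5 to 225 CPM, and *Hif1a* from 131 to 534, while the enzyme *Gapdh* fell from 1109.9 to 547 CPM but had a log2 ratio of 0.14 per cell. Of 78 nuclear respiratory chain genes, 6 were at least 2-fold lower and 1 higher, both below the shares of all genes. Their median was -0.39. *Ndufv3*, of complex I, fell from 179.9 to 73.1 CPM, and *Sdhd*, of complex II, rose from 13.3 to 41.6. Transcripts of the mitochondrial genome had a median of 0.55. Of 13, 5 were at least 2-fold higher (against 10.6% of all genes), led by *mt-Co2* at 2631 and 5524 CPM. The limit of 5% on mitochondrial UMIs, which removed 18 UI and 273 LP4 barcodes, acts on these same genes. Cytosolic ribosomal proteins took 11.3% of UMIs in UI and 8.44% in LP4, with a median of -0.41. Of 82, 2 were at least 2-fold lower (against 9.91% of all genes), *Rpl36* and *Rps15*, neither of which was lower per cell. Ribosomal protein genes have many near-identical pseudogenes, so single members are uncertain.

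Cholesterol uptake and synthesis and antioxidant genes held a few larger differences. *Idi1*, of the mevalonate pathway, rose from 22.2 to 47.6 CPM, and 3 of 17 genes were at least 2-fold higher (against 10.6% of all genes). *Mylip*, a ubiquitin ligase, fell from 73.2 to 10.7 CPM, and the efflux transporter *Abca1* was lower within 2-fold, at 358 and 229 CPM. *Sod2*, mitochondrial superoxide dismutase, rose from 104 to 847 CPM and *Slc7a11*, the cystine importer, from 304 to 1153. *Mt2*, a metallothionein, rose from 57.3 to 538 CPM. *Slc40a1*, the iron exporter ferroportin, fell from 10.3 to 2.18 CPM, and *Nfe2l2*, the antioxidant regulator NRF2, from 252 to 104. The ferritin chains parted within 2-fold. *Fth1*, the heavy chain, gained 12576 CPM, the largest gain of any gene, and *Ftl1*, the light chain, dropped by 4681 CPM, the largest loss once unnamed genes and those of ribosomal proteins and the mitochondrial genome are left aside. None of 6 genes of the phagocyte NADPH oxidase differed 2-fold, with a median of -0.53, where 79.5% of all genes were within 2-fold.

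Of 28 macrophage identity genes, 2 were at least 2-fold higher and 4 at least 2-fold lower, with a median of -0.41, so that 22 were within 2-fold, a share near the 79.5% of all genes. *Cebpb*, a transcription factor of inflammatory macrophages, rose from 98.8 to 1657 CPM and *Fcgr1*, the high-affinity IgG receptor, from 109 to 244. The complement genes *C1qa* and *C1qb* fell from 70.6 to 26.7 and from 58.2 to 27.6 CPM. *Lyz2* stood at 9209 and 8716 CPM. Among 26 lysosome genes, with a median of -0.20 that became 0.03 under TMM, *Ctsl* rose from 4454 to 9483 CPM and *Tfeb*, the regulator of lysosome formation, fell from 64.4 to 15.8. *Ctsd*, another cathepsin, was lower within 2-fold and dropped by 3382 CPM.

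Of 19 cell death and survival genes, 8 were at least 2-fold higher (against 10.6% of all genes) and 1 lower (against 9.91%). *Fas*, a death receptor, and *Mlkl*, the executor of necroptosis, rose from 21.1 to 82.3 and from 12.5 to 53.7 CPM, as did *Bcl2a1d*, an inhibitor of apoptosis, from 43.3 to 179. *Bcl2a1a* and *Bcl2a1d* are near-identical copies, so their division is uncertain. *Bcl2l11*, the death inducer BIM, fell from 243 to 94.9 CPM. In the unfolded protein response, *Ern1* fell from 141 to 40.6 CPM, *Ddit4* rose from 2.55 to 21.6, and *Atf4* had a log2 ratio of -0.01. Among cell cycle genes, *Ccnd2* rose from 1.79 to 12.7 CPM, *Ccnd3* fell from 37.1 to 14.7, and *Mcm7*, of the replicative helicase, fell from 28.7 to 10.9. *Cdk1* rose from 6.86 to 15.5 CPM but had a log2 ratio of -0.32 in cells of 5000 to 15000 UMIs, so its direction was not the same in that range of depth. Cells with at least 0.5% of UMIs in replication and mitosis genes were 128 of 6071 in UI and 60 of 4670 in LP4.

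How widely a rise was spread was measured by thinning each cell to 2000 UMIs and counting the cells with at least 1 UMI. This left out 122 UI and 45 LP4 cells. *Rsad2* was seen in 8.61% of UI cells and 92.1% of LP4 cells, and *Cebpb* in 18.5% and 92.1%. In the 29 LP4 cells gated as neutrophils, given as a level for another cell type, *Rsad2* was seen in 13.8% and *Cebpb* in 82.8%, at a median of 9303 UMIs before thinning against 11838 for all LP4 cells used. Without thinning, *Rsad2* was seen in 15.2% and 97.2% of cells. *Irgm2* was seen in 18.6% of LP4 cells, against 18.9% had its UMIs been spread evenly over cells. By contrast, *Cxcl5* was seen in 8.24% of LP4 cells (95% interval 7.46 to 9.07) where an even spread would have given 27.9%, and the 5% of cells with most of it held 87.1% of its UMIs. None of the 29 neutrophil-gated cells held it, with an exact upper limit of 11.9%. *Nos2* was seen in 19.2% against 30.9% when even, and *Cxcl3* in 42.7% against 67.7%, with 3.45% and 6.90% of the neutrophil-gated cells. Thus transcripts such as those of *Cxcl5*, *Nos2* and *Cxcl3* lay in fewer cells than an even spread would give, and those of the GTPase *Irgm2* were near it.

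Over the 169 genes at least 4-fold higher with at least 50 CPM in LP4, the median share of cells with a UMI was 4.40% in UI and 24.9% in LP4. These genes were chosen for their rise, so the higher share in LP4 follows from the choice. Of the 169, 39 were seen in at least 50% of LP4 cells and 11 in fewer than 10%. In 51, the observed share was at least 95% of the evenly spread one, in 40 it was under 80%, and *Cxcl5* had the lowest ratio, 29.5%. *Tnf* was seen in 71.5% of thinned UI cells and 30.4% of LP4 cells, yet at most 36 UMIs of it were in any UI cell and up to 150 in an LP4 cell. *Cxcl2* was seen in 97.6% and 65.0%, with at most 140 and 657 UMIs in a cell. Both were thus seen in fewer LP4 cells after thinning. The maxima are of cells at their own depth, which was greater in LP4, and were not thinned. *Fos* was seen in 65.5% of UI cells and 3.05% of LP4 cells.

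**Figure D4:**
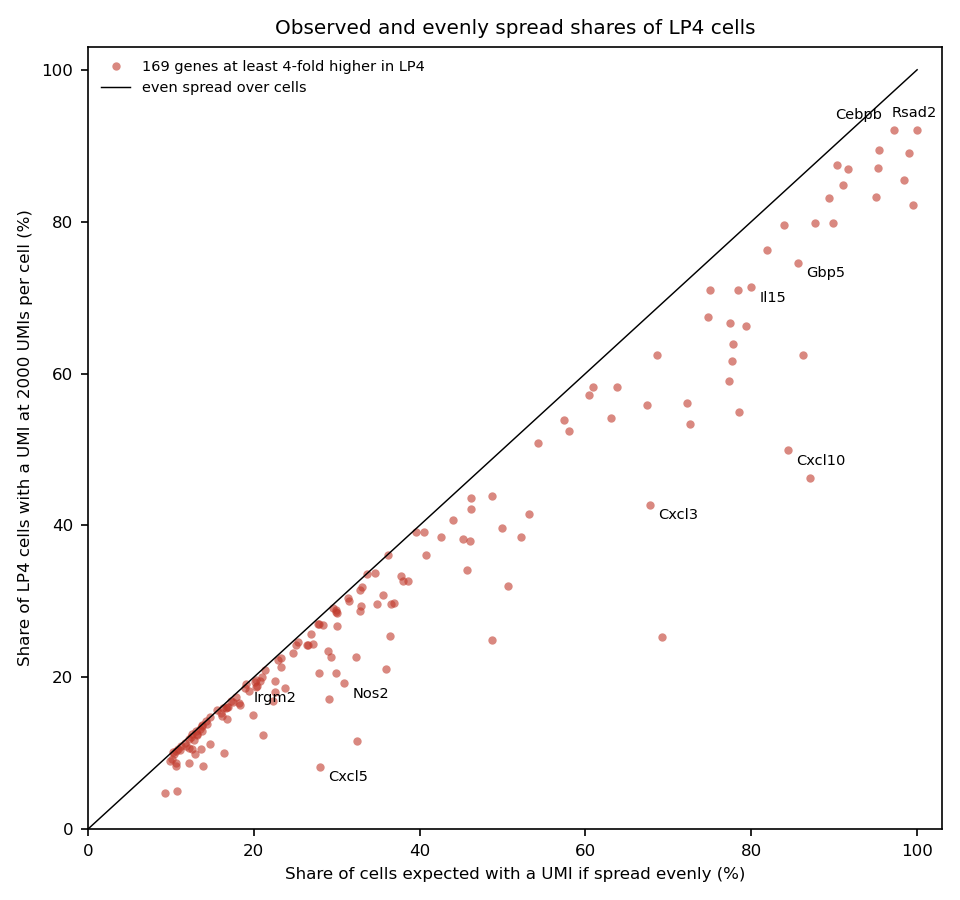
Share of LP4 cells with at least 1 UMI after thinning to 2000 UMIs per cell (y axis, %) against the share expected if the same UMIs were spread evenly over cells (x axis, %), for 169 genes at least 4-fold higher in LP4 with at least 50 CPM there, 1 point per gene, and a line of equality. *Irgm2* lies on the line and *Cxcl5*, at 8.24% against 27.9%, far below it.

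The share of a cell's UMIs in a gene list was also compared between the libraries. The interferon-response list had a median share of 0.20% over UI cells and 1.80% over LP4 cells, and 87.4% of LP4 cells lay above the 95th percentile of UI cells. For the GBP list 71.7% of LP4 cells did so, for the enzyme list 56.8%, for the mitochondrial genome 55.8% and for MHC class I 43.8%. Cytokines (24.5%) and chemokines (16.9%) were less separated. A list share sums rises and falls, and both lists hold abundant genes that fell, among them *Tnf* and *Cxcl2*. *Cxcl2* alone held 4378 of the 6280 CPM of the chemokine list in UI and 1489 of 8766 in LP4. The shares of these 2 lists therefore do not measure how widely their rising members rose. In the immediate early list, 29.2% of LP4 cells lay below the 5th percentile of UI cells, for nuclear respiratory chain genes 29.3% and for ribosomal proteins 34.9%. The median log2 ratios of these lists were -1.82, -0.39 and -0.41, so this share does not follow the size of the fall. In UMIs per cell, the respiratory chain and ribosomal lists had positive medians, 0.77 and 0.76. For macrophage markers, whose share also sums rises and falls, 4.89% lay above the 95th percentile and 3.26% below the 5th. Cells of a library are not replicates, and these shares describe these 2 libraries.

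**Figure D5:**
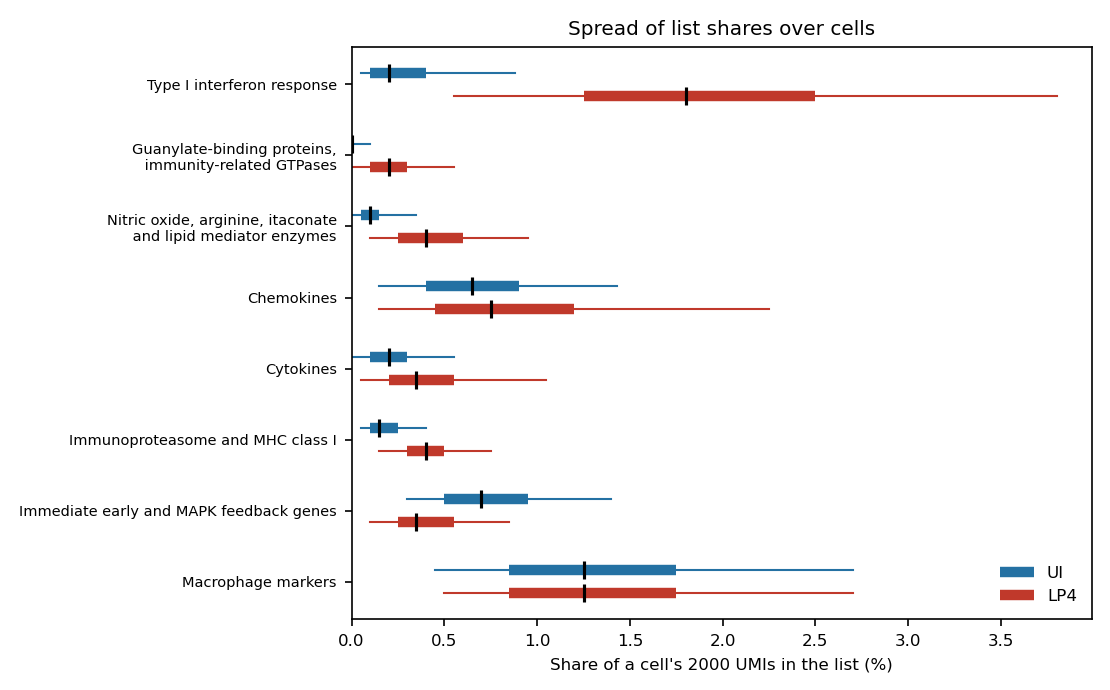
Percent of each thinned cell's 2000 UMIs in the members of 8 gene lists, for UI and LP4 cells, with whiskers from the 5th to the 95th percentile of cells, boxes for the quartiles and lines for the median. The interferon-response share rose from a median of 0.20% to 1.80%, and the macrophage marker share overlapped between the libraries.

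Genes at least 2-fold lower were longer. Their median span in the genome was 34.2 kb, against 27.2 kb for all 8019 genes and 25.6 kb for genes at least 2-fold higher, and genes at least 4-fold lower had 36.9 kb. With the genes cut into 4 bins of equal size, from the shortest span to the longest, the share at least 2-fold lower was 10.6%, 7.18%, 7.49% and 14.4%, and the share at least 2-fold higher was 9.88%, 12.1%, 11.1% and 9.33%. Both the shortest and the longest bin thus held more of the lower genes than the bins between them.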

How the data were processed

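RNA of single BMDMs was counted by droplet-based 3′ sequencing in 1 library each of UI, LP1 and LP4. The authors' counts, as deposited, are UMIs per gene and barcode without normalization, made per the labels with Cell Ranger 7.1.0 on mm10, in barcodes called as cells. Whether reads in introns were counted is not given in the sources used here. Barcodes were filtered as above, UMIs summed and scaled to CPM, and genes with at least 10 CPM in UI or LP4 compared by log2 ratio, with exact Poisson, conditional binomial and binomial intervals at 95%. A difference of at least 2-fold was counted. No doublet caller was run. Cells with the most UMIs were instead left out as an alternative.

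Positions are of GENCODE vM21 on GRCm38 (mm10). The gene lists and this comparison were chosen with earlier results of these data known. Genes named are the 10 largest rises and falls among genes with at least 50 CPM, unnamed genes and those of ribosomal proteins and the mitochondrial genome aside, the 5 largest gains and losses in CPM, from each list up to 4 rises, 4 falls and 2 nearest to 0, and *Tlr1*, *Tlr2*, *Tlr6*, *Myd88* and *Ifnb1*. Some genes this rule takes are not reported here. Thinning used a seed of 20. Ratios were tested on simulated data. TMM factors came from edgeR 4.0.16 in R 4.3.3. All other steps ran in Python 3.11.15 with pandas 2.3.3, scipy 1.17.1, numpy 2.4.6 and matplotlib 3.10.9. Alternatives changed the cells kept, the scaling and the minimum level.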

Additional observations from a re-analysis of the deposited data

Results flagged for a closer look

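In 4 genes the difference from UI was at least 2-fold in opposite directions at 1 h and at 4 h. Both comparisons share the UI library, and the difference between them was not tested. *Nos2* had a log2 ratio of -1.36 (-2.82 to -0.01) in LP1 and 8.92 in LP4, on 14 UMIs in UI, 8 in LP1 and 11689 in LP4. *Tgtp2*, whose count is uncertain, had -1.04 (-2.10 to -0.02) in LP1 and 4.24 in LP4, on 21, 15 and 682 UMIs. *Slfn4*, a Schlafen family gene, had -1.81 (-2.53 to -1.13) in LP1 and 4.22 in LP4, on 62, 26 and 1981 UMIs. *Fam177a* had -1.02 (-1.26 to -0.78) in LP1 and 1.14 in LP4, on 339, 246 and 1283 UMIs. The LP1 interval lay wholly below -1 for *Slfn4* alone.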

How the results depend on the processing

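The main comparison gave 850 genes at least 2-fold higher, 795 lower and a median log2 ratio of -0.07. TMM scaling gave 523 lower and a median of 0.15, and median-of-ratios scaling a median of 0.13. Leaving mitochondrial and ribosomal protein genes out of the total gave a median of -0.10. Dividing by cells instead of UMIs gave 4395 higher, 122 lower and a median of 1.09. Cells of 5000 to 15000 UMIs gave a median of -0.14. A minimum of 50 CPM, which leaves 3727 genes, gave 486 higher, 326 lower and a median of -0.013, and a minimum of 20 UMIs, which leaves 14361 genes, gave 1671 higher, 2247 lower and a median of -0.15. Both counts stayed within 1.5 times of the main ones with all barcodes, with a mitochondrial limit of 10%, with the mean of cell shares, in cells of 5000 to 15000 UMIs, under median of ratios, and without the 5% of cells with most UMIs, cells of other types or cycling cells.

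In UMIs per cell, 13 named genes that were at least 2-fold lower in CPM had a positive log2 ratio: *Csf1* (0.10), *Cd86* (0.033), *Cd44* (0.10), *Gapdh* (0.14), *Uqcr11* (0.067), *Rpl36* (0.022), *Rps15* (0.026), *Mrps12* (0.032), *Mrpl41* (0.060), *C1qb* (0.083), *Stab1* (0.090), *Mcm3* (0.11) and *Mcm4* (0.13). *Cdk1* had -0.32 in cells of 5000 to 15000 UMIs, and the cause was not tested. Of 122 genes taken by the naming rule at least 2-fold different, 107 were so in the same direction under TMM, 107 under median of ratios and 88 in UMIs per cell. Of 330 alternative list medians, 298 stayed within an interval around the main median. Unlike the other intervals, this one comes from the spread of the members' own ratios and not from counting error. It is wide for short or mixed lists, running from 0.13 to 5.35 for chemokines, so staying inside it says little. Outside UMIs per cell, 5 lists changed sign.

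No paired analysis was possible because each condition is 1 library. Depth limits genes with few UMIs in UI, such as *Ifnb1*, *Ch25h* and *Nos2*, whose intervals are wide.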

Other observations

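Of the 2056 genes that reached 100 CPM in either library, 312 were at least 2-fold higher in LP4 and 192 at least 2-fold lower. Beside *Fth1*, and leaving aside unnamed genes and those of ribosomal proteins and the mitochondrial genome, the largest gains in CPM were those of *Tmsb4x*, the actin-binding thymosin β4 (5301 CPM), *Ctsl* (5029 CPM), *Rsad2* (4865 CPM) and *Ccl4* (2410 CPM). Beside *Ftl1*, *Actb* dropped by 3531 CPM, *Lgals3*, the lectin galectin-3, dropped by 2972 CPM and *Cxcl2* dropped by 2889 CPM. *Actb* and *Lgals3* were lower within 2-fold and higher in UMIs per cell, with log2 ratios of 0.47 and 0.63.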
